A study of Mus musculus with 4 samples.

Results

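Surface proteins used to sort or score ovarian cancer stem cells, and the Ly6 genes that neighbour 1 of them, were followed in mouse ID8 cells with and without knockdown of the deubiquitinase USP9X. The 8 genes were Cd44, Kit, Prom1, Ly6a, Ly6e, Ly6c1, Cd24a and Epcam, taken by symbol from a table of 22063 genes, and each symbol occurred once. All 8 were found, and 6 of them passed edgeR's filter on low values, as did 11448 genes of the table.

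ID8 is an established mouse ovarian cancer line that derives from ovarian surface epithelium. Poly(A)-selected RNA was sequenced from 2 libraries of cells with a control short hairpin RNA (shCtrl, labelled wild type) and 2 of cells with a hairpin against USP9X (shUSP9X, labelled as a knockdown). The labels name no other treatment, do not say which hairpin was used, and do not say that libraries of a group came from separate cultures, so p-values measure only the spread between these libraries, which may be technical. Library totals were 17232006 and 15611363 estimated counts for shCtrl and 19978889 and 17021261 for shUSP9X.

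The target checked the labels. Counts of Usp9x were 5169 and 4453 in the control libraries and 390 and 346 after knockdown. Its log2 fold change was -3.85 ± 0.06 (SE), and it was -2.16 with an offset that removes each library's trends with the GC content and length of transcripts (the GC and length offset). Markers of the labelled line were counted too. Of 12 markers of ovarian surface epithelium and ID8 cells, 10 were tested, and vimentin (Vim), the most abundant, had between 31001 and 50699 counts in the 4 libraries. Of these 10 genes, 5 fell and 4 rose, among them the mesothelial antigen Msln at -0.47 and the keratin Krt8 at 0.92 on the log2 scale, with a list median of -0.07. Of all genes tested 33.6% fell and 33.8% rose. With the GC and length offset 7 of the markers were lower and 3 higher, beside 26.0% and 37.5% of all genes, with a list median of -0.25. Krt7, a keratin of many ovarian epithelia, had at most 3 counts in any library.

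CD44 is a receptor for hyaluronan, a sugar polymer of the matrix around cells. KIT (CD117) is the receptor tyrosine kinase for stem cell factor, prominin-1 (CD133, encoded by Prom1) sits in membrane protrusions, CD24 is a small glycosylated protein held in the membrane by a GPI lipid anchor, and EpCAM is an adhesion protein of epithelia. SCA1, encoded by Ly6a, and its relatives LY6C1 and LY6E are small GPI-anchored proteins with the three-finger fold of the Ly6/uPAR family, and Ly6a and Ly6e are known to respond to interferon. None of these proteins marks stem cells alone, since leukocytes and other normal cells carry most of them.

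The study's list of mouse RT-qPCR primers holds pairs for CD44, CD117, SCA1 and CD133, and these primers show which stretch of each transcript such an assay reads. They are printed 5′ to 3′ with the forward primer first.
CD44 forward: tcgatttgaatgtaacctgccg
CD44 reverse: cagtccgggagatactgtagc
CD117 forward: gcctgacgtgcattgatcc
CD117 reverse: agtggcctcggctttttcc
SCA1 forward: aggaggcagcagttattgtgg
SCA1 reverse: cgttgaccttagtacccagga
CD133 forward: ctgcgatagcatcagaccaagc
CD133 reverse: cttttgacgaggctctccagatc

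Each pair matched transcripts of its own gene only in GENCODE M21 (GRCm38), and every primer lay in coding sequence. The CD44 pair spans exons 1 and 2 of 19 on chromosome 2, yields 78 bp and was found in 9 of 9 Cd44 transcripts. The CD117 pair lies within exon 2 of 21 on chromosome 5, yields 110 bp and was found in 2 of 8 Kit transcripts. The SCA1 pair lies in exons 3 and 4 of 4 on chromosome 15, yields 114 bp and was found in 5 of 6 Ly6a transcripts. The nearest other family gene to it was Ly6f, with 6 mismatches over both primers. The CD133 pair lies in exons 8 and 9 of 25 on chromosome 5, yields 132 bp and was found in 11 of 19 Prom1 transcripts.

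Among the 8 genes, 6 were higher in the shUSP9X libraries and 0 were lower at an adjusted p under 0.05 (edgeR's quasi-likelihood test with Benjamini-Hochberg adjustment), where 33.8% of all genes tested were higher and 33.6% lower. With the GC and length offset these shares were 37.5% and 26.0%, and 6 of the 8 genes were again higher. Each of these 6 also had both shUSP9X libraries above both shCtrl libraries in scaled counts, as did 41.2% of all genes tested. Their median log2 fold change was 1.13, against 0.00 for all genes tested. At the cutoff of the study's methods, an unadjusted p under 0.05 with a fold change above 1.5, 4 of the 6 were higher, beside 10.8% of all genes tested. Cd44 (1.34-fold) and Kit (1.49-fold) stayed under that fold change. An exact permutation test of 2 libraries against 2 cannot give a two-sided p below 0.333, so none is used. In RNA from whole cultures, more cells with a transcript and more transcript per cell cannot be told apart.

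**Figure D1:**
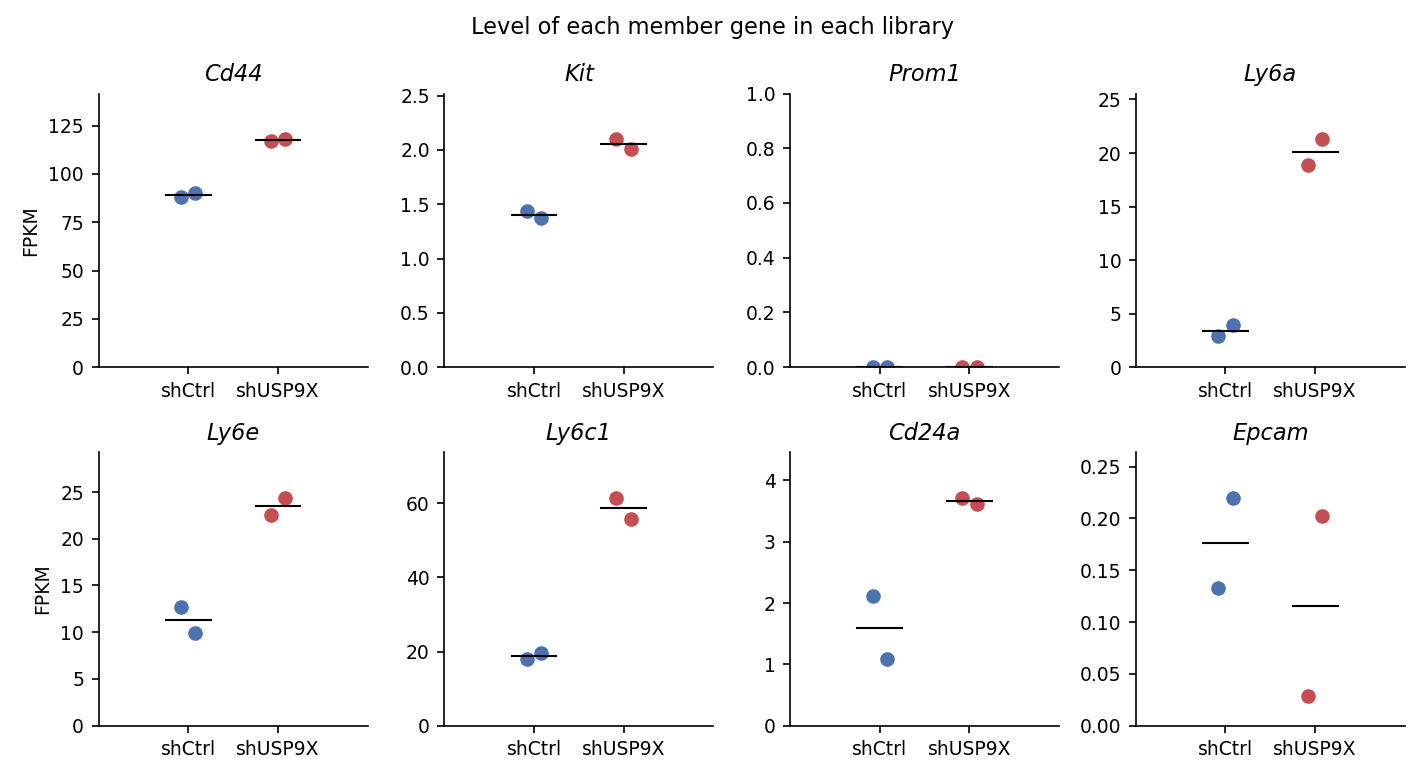
Level of each of the 8 genes in each library, in FPKM on a linear axis that starts at 0 and differs between panels. Points are libraries and bars are group means, with both shUSP9X libraries above both shCtrl libraries for Cd44, Kit, Ly6a, Ly6e, Ly6c1 and Cd24a, overlap for Epcam, and 0 throughout for Prom1.

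Ly6a had the highest log2 fold change of the 6 genes, in the 15 alternative analyses too. Ly6a (ENSMUSG00000075602, chromosome 15, 74994877 to 74998031, minus strand), which encodes SCA1, had 46 and 56 counts in the shCtrl libraries and 344 and 325 in the shUSP9X libraries. Scaled for length and depth, these were 2.90 and 3.91 FPKM against 18.9 and 21.3 FPKM. The groups lay far apart, and the shUSP9X libraries were close to each other. The rise was 5.93-fold (log2 fold change 2.57 ± 0.17 SE, adjusted p = 3.2e-13), rank 114 from the highest of the 11448 genes tested, and its log2 fold change was 2.40 with the GC and length offset.

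Ly6c1 (ENSMUSG00000079018, chromosome 15, 75044018 to 75048830, minus strand), an antigen of monocytes and endothelium, had 251 and 221 counts in the shCtrl libraries and 949 and 727 in the shUSP9X libraries, or 18.1 and 19.7 FPKM against 61.5 and 55.8 FPKM. It rose 3.21-fold (log2 fold change 1.68 ± 0.10 SE, adjusted p = 2.3e-14). Among the 6 genes this came next after Ly6a, but with the GC and length offset Ly6c1 was at 1.42 and Cd24a at 1.52, and without shCtrl replicate 1 they were at 1.72 and 1.79. The reads of Ly6c1 are the least certain of the 8 genes. Of the 50-base windows of its longest transcript, 36.73% also occur in another gene, chiefly Ly6c2, and 15.3% of its 100-base windows do. Ly6c2 itself was at 0 in both control libraries and at 1 and 2 after knockdown. For Ly6a 10.04% of the 50-base windows were shared and 0% of the 100-base windows.

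Ly6e (ENSMUSG00000022587, chromosome 15, 74955051 to 74959905, plus strand), a broadly expressed relative, had 395 and 277 counts in the shCtrl libraries and 781 and 744 in the shUSP9X libraries, or 12.7 and 9.94 FPKM against 22.5 and 24.4 FPKM. The shCtrl libraries differed more from each other than the shUSP9X libraries did, without reaching them. The rise was 2.07-fold (log2 fold change 1.05 ± 0.10 SE, adjusted p = 1.3e-09), and no window of its transcript was shared with another gene.

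The 3 Ly6 genes together gave 33.7 and 33.5 summed FPKM in the shCtrl libraries and 103 and 102 in the shUSP9X libraries. Their proportions changed as well. The FPKM ratio of Ly6a to Ly6e was 0.228 and 0.394 in shCtrl and 0.841 and 0.873 in shUSP9X, and that of Ly6a to Ly6c1 was 0.161 and 0.199 against 0.308 and 0.382. Neither ratio overlapped between the groups.

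Ly6a, Ly6c1 and Ly6e lie in 1 cluster of the family on chromosome 15, from Psca to Gpihbp1 (74714839 to 75599481). The table holds 25 genes there, 21 of them on the family list, and 15 were at 0 in every library. Only 6 were tested. Beside the 3 Ly6 genes that rose, Lynx1, a modulator of nicotinic receptors, fell from 28 and 24 counts to 16 and 0 (log2 fold change -1.84 ± 0.60 SE, adjusted p = 0.00868). Without shUSP9X replicate 2 the log2 fold change of Lynx1 was -0.94 with an adjusted p of 0.213, and DESeq2 gave an adjusted p of 0.508. Slurp1, a secreted relative, had 17 and 19 counts against 23 and 21. The thioesterase-like gene Them6 had 56 and 48 counts against 27 and 46. It did not pass the test, but with the GC and length offset it was lower by the test (adjusted p = 0.0227), so that 2 genes of the cluster were then lower and 3 higher. The neighbours Ly6i, Ly6g, Ly6d and Ly6k were at 0 in all 4 libraries, which allows up to 3 counts of each library's total. Within 1 Mb after the cluster 35 genes were tested, of which 20 rose and 4 fell, with a median log2 fold change of 0.33, beside 33.8% and 33.6% of all genes tested. The offset gave 15 higher and 7 lower, beside 37.5% and 26.0% of all genes tested, with a median of 0.08. Within 1 Mb before the cluster only Jrk was tested, and it fell (-0.59, and -0.61 with the offset).

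**Figure D2:**
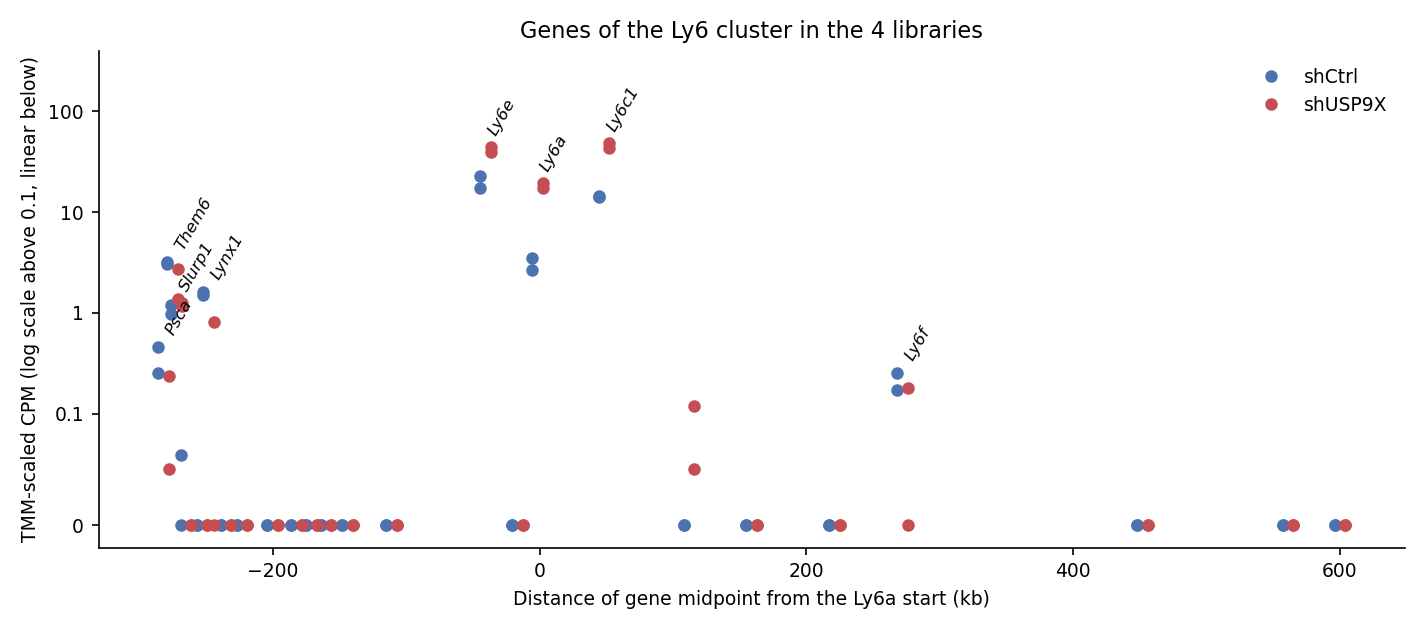
Scaled CPM (counts brought to a common library size) of the 25 genes in the Ly6 cluster, on an axis that is logarithmic above 0.1 and linear below, by distance of each gene's midpoint from the Ly6a start in kb. Each point is 1 library, shCtrl in blue and shUSP9X in red set slightly apart; genes above 3 counts in some library are named. Ly6e, Ly6a and Ly6c1 stand highest in shUSP9X, while in shCtrl the points of Ly6a lie among those of Them6.

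Over the whole Ly6/uPAR list, 41 of 42 genes were in the table and 27 had at most 3 counts in every library. Of the 8 tested, 4 rose and 1 fell, where 33.8% of all genes tested rose and 33.6% fell, with a median log2 fold change of 0.97. The fourth riser was Plaur, the urokinase receptor, with 1090 and 1022 counts against 2800 and 2374 (log2 fold change 1.15 ± 0.05 SE, adjusted p = 1.4e-16). Lypd1 was at 171.78 and 51.21 estimated counts in the control libraries and 129.6 and 49.18 after knockdown, so that its libraries differed more within a group than between groups. Lypd6b had 11 and 3 counts against 15 and 14. Psca, Cd59a, Ly6g5b, Lypd6, Cd177 and Ly6f were above 3 counts in some library but too low to test, with at most 15 counts.

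Interferon response genes were counted beside the Ly6 genes because 2 of these are known interferon targets. None of the 8 genes is on that list. Of 38 interferon response genes tested, 34 rose and 2 fell, beside 33.8% and 33.6% of all genes tested, with a median log2 fold change of 1.87. Irf7, a transcription factor of the response, went from 185 and 151 counts to 3373 and 2818, and Zbp1, a sensor of nucleic acids, from 3 and 4 to 140 and 122. Genes as low as Zbp1 in shCtrl passed the filter only through shUSP9X, so their direction was fixed beforehand. With at least 10 counts in every library 29 genes of the list were higher and 2 lower. Ifit2 fell by 0.63 and Eif2ak2 by 0.56 on the log2 scale. Neither of these falls passed the test once the trends with GC content and length were removed, at -0.02 and -0.12. With that offset 35 interferon response genes were higher and 1 other gene was lower. The shares of all genes tested were then 37.5% and 26.0%, and the list median was 1.85. Whether the interferon genes and the Ly6 genes share a cause was not tested.

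By pattern over the 4 libraries, the genes most like Ly6a were Apol9a, Gm7592 and Phf11d, with root mean square differences of 0.0696, 0.0943 and 0.123 in centred log2 CPM, where CPM is a count brought to a common library size. Those most like Ly6e were Cyth4, Ifit1bl1 and 2210016F16Rik, at 0.0525, 0.0596 and 0.0605. For Cd44 they were Got2, Rpl32 and Rplp0, at 0.00734, 0.00786 and 0.00946, and 1934 tested genes lay within 0.1 of Cd44 against 2 for Ly6a. With 4 libraries in 2 groups, this likeness mostly restates the size of the change.

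Cd44 (ENSMUSG00000005087, chromosome 2, 102811141 to 102901665, minus strand) was the most abundant of the 8 genes. It had 5688 and 5115 counts in the shCtrl libraries and 8693 and 7332 in the shUSP9X libraries, or 87.9 and 90.0 FPKM against 117 and 118 FPKM. Libraries of a group were nearly equal in FPKM, and the groups did not overlap. The rise was 1.34-fold (log2 fold change 0.43 ± 0.04 SE, adjusted p = 6.8e-11). It grew to 0.96 with the GC and length offset. The Cd44 transcript has 44.5% GC, and the 1143 genes of similar GC content, 44.1 to 46.3%, had a median log2 fold change of -0.19. Genes of similar length to its 5614 bases had a median of -0.22.

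**Figure D3:**
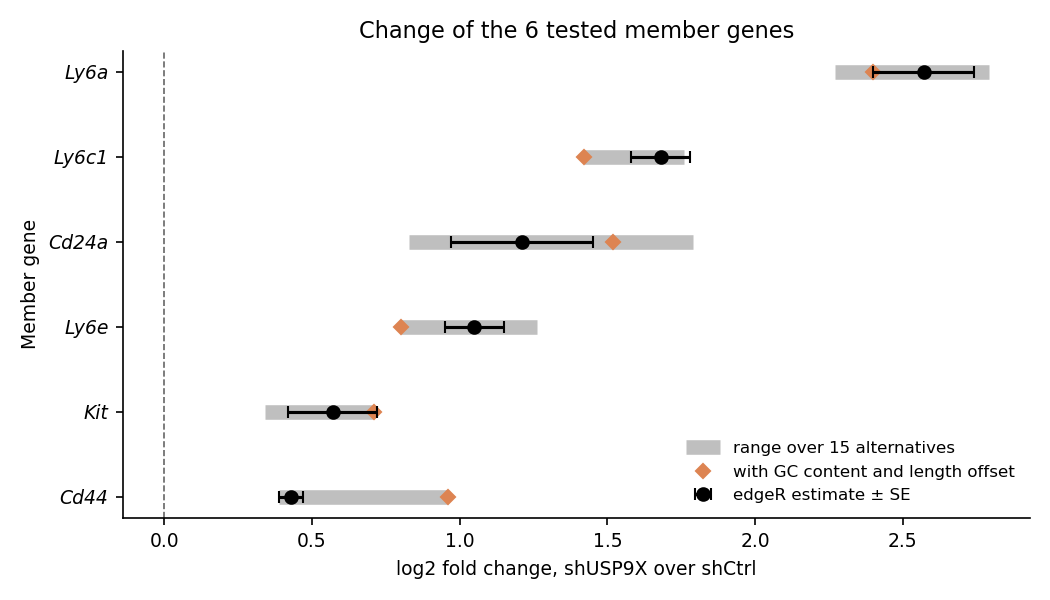
Log2 fold change of the 6 tested genes, shUSP9X over shCtrl. Black points with bars are edgeR estimates with their SE, orange diamonds the estimates with the GC and length offset, and grey bars the range over 15 alternative analyses, all above 0 and widest for Cd24a, from 0.83 to 1.79.

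Of 23 tested genes for ligands, enzymes and linkers around CD44, 9 fell and 8 rose, with a median of -0.04, shares close to those of all genes tested (33.6% lower and 33.8% higher). The GC and length offset gave 5 lower and 9 higher, beside 26.0% and 37.5%, with a median of 0.12. The ligands fibronectin (Fn1, 26826 and 25023 counts against 10291 and 9253) and osteopontin (Spp1, 42323 and 36766 against 26719 and 23170) fell by 1.55 and 0.81 on the log2 scale. The hyaluronan receptor Hmmr fell by 1.73 (-1.08 with the GC and length offset) and the hyaluronan synthase Has3, at 15 and 22 counts against 10 and 7, by 1.26, a call that DESeq2 did not make (adjusted p = 0.225). The proteoglycan Vcan fell by 1.13, but had a log2 fold change of 0.21 with the GC and length offset. The hyaluronidase Hyal2 rose by 0.69 and the hyaluronan-degrading Cemip by 0.61, a call lost on log2(FPKM + 1) values (adjusted p = 0.0597). Serglycin (Srgn) had 3 and 0 counts against 81 and 55, and the CD44 partner Cd74 had 1 and 4 against 49 and 45. Both are abundant in leukocytes, and both passed the filter only through shUSP9X, so their direction was fixed beforehand.

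RefSeq (GRCm38.p6) holds the promoter of Cd44, and the 250 bases before its start at chr2:102901666-102901915 (minus strand) are shown because hypoxia-inducible factors are the study's subject. Capitals mark a match to the core of the hypoxia response element, which begins 29 bases before the start.
Cd44 promoter: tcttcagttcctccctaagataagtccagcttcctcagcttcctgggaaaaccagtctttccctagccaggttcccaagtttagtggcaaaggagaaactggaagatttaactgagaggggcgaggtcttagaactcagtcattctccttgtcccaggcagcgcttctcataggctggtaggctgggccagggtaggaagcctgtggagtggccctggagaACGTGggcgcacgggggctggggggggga

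The letters of 4 motifs were searched on both strands of this 250-base window in 32851 promoters, and motifs may overlap each other. The hypoxia core (ACGTG or GCGTG) occurred in 38.6% of all promoters, and in those of Cd44 and Kit. The SMAD letters CAGAC occurred in 42.19%, and in Epcam and 1 of 2 Ly6c1 starts. The interferon-stimulated response element, GAAA followed by any 2 bases and GAAA, in 2.98% of promoters, and the STAT letters TTCNNNGAA, in 7.02%, were in none of the windows of Cd44, Kit, Prom1, Ly6c1 and Epcam. The promoters of Ly6a, Ly6e and Cd24a were not analysed here.

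Kit (ENSMUSG00000005672, chromosome 5, 75574916 to 75656722, plus strand) was a low transcript, with 130 and 112 counts in the shCtrl libraries and 219 and 179 in the shUSP9X libraries, or 1.44 and 1.37 FPKM against 2.10 and 2.01 FPKM. Both groups were narrow and did not overlap. It rose 1.49-fold (log2 fold change 0.57 ± 0.15 SE, adjusted p = 0.0016). On log2(FPKM + 0.1) values in limma its log2 fold change was 0.52 with an adjusted p of 0.051, and on log2(FPKM + 1) values it was 0.34 with an adjusted p of 0.0456.

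The ligand of the receptor went the other way. Kitl, which encodes stem cell factor, was at 1108 and 993 counts in the control libraries and 332 and 275 after knockdown, a log2 fold change of -1.93 ± 0.08 (SE, adjusted p = 3.2e-17), or -0.72 with the GC and length offset. The FPKM ratio of Kit to Kitl was 0.118 and 0.115 in shCtrl and 0.708 and 0.626 in shUSP9X. FPKM carries no GC offset, and with the offset on counts the log2 fold changes of Kit and Kitl lay closer, at 0.71 and -0.72. Of 30 genes of KIT signalling tested, 11 fell and 8 rose, with a median of -0.04, near the 33.6% lower and 33.8% higher of all genes tested. The offset for GC content and length gave 8 lower and 13 higher, beside 26.0% and 37.5%, with a median of 0.00. The kinases Jak2 and Fyn fell by 1.29 and 1.25 on the log2 scale and the transcription factor Mitf by 1.55, while the adaptors Dok1 and Shc1 rose by 0.51 and 0.32, the kinase Src by 0.45 and the inhibitor Socs1 by 0.89. Jak2 was at -0.80, Dok1 at 0.24 and Shc1 at 0.16 with the GC and length offset. DESeq2 did not call Mitf (adjusted p = 0.122) or Socs1 (0.186). Plcg2, a phospholipase of blood cells, was at 0 in both shCtrl libraries and at 12 and 13 counts in shUSP9X, at least 3.80-fold higher against a floor of 3 counts per library. It passed the filter only through shUSP9X, so its direction was fixed beforehand. Ptpn11, the most abundant, rose by 0.13, a call lost without shUSP9X replicate 1 (adjusted p = 0.165).

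Cd24a (ENSMUSG00000047139, chromosome 10, 43578284 to 43584265, plus strand) had 66 and 31 counts in the shCtrl libraries and 135 and 112 in the shUSP9X libraries, or 2.11 and 1.09 FPKM against 3.72 and 3.62 FPKM. The shCtrl libraries differed widely from each other, the shUSP9X libraries were nearly equal, and the groups did not overlap. The rise was 2.31-fold (log2 fold change 1.21 ± 0.24 SE, adjusted p = 9.5e-05). It was 1.79 without shCtrl replicate 1 and 0.83 without shCtrl replicate 2. Of its 50-base windows 3.9% are shared with the pseudogene-like Gm6212.

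Of 7 tested genes for partners of CD24, 2 rose and 2 fell, with a median of 0.03, and 33.8% of all genes tested rose and 33.6% fell. With the GC and length offset 4 were higher and 1 lower, beside 37.5% and 26.0% of all genes, with a median of 0.24. Siglecf, a siglec of eosinophils and alveolar macrophages, was at 0 in both shCtrl libraries and at 25 and 17 counts in shUSP9X, at least 6.27-fold higher. It passed the filter only through shUSP9X, so its rise among these 7 genes was fixed beforehand. The most abundant of them, Hmgb1, fell by 0.10, but stood at 0.66 with the GC and length offset.

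Epcam (ENSMUSG00000045394, chromosome 17, 87635979 to 87651129, plus strand) was close to the floor, with 4 and 6 counts in the shCtrl libraries and 1 and 6 in the shUSP9X libraries, at most 0.220 FPKM. The groups overlapped, and no difference was detectable at this depth. Epithelial genes around it were mostly low too. Of 13 epithelial markers 5 were tested, of which 3 rose, beside 33.8% of all genes tested. These were the tight junction gene Cldn3 (53 and 43 counts against 162 and 103), the keratin Krt14 and the splicing factor Esrp2. DESeq2 did not call Esrp2 (adjusted p = 0.101). Under the GC and length offset 2 of the 5 were higher, beside 37.5% of all genes tested. Of 10 tested EpCAM partners, 6 rose and 2 fell, beside 33.8% and 33.6% of all genes tested, with a median of 0.29, among them the tetraspanin Tspan8 at 0.63, Psen2, a subunit of a membrane protease, at 0.88, and the junction scaffold Tjp1 at -0.58. Under the GC and length offset 5 were higher and 1 lower, beside 37.5% and 26.0%, and the median was 0.20. Tspan8 was at 1.07 and Tjp1 at -0.15 with it.

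Prom1 (ENSMUSG00000029086, chromosome 5, 43993620 to 44102032, minus strand) was at 0 counts in all 4 libraries, which allows up to 3 counts of each library's total. CD133 transcript was not detectable at this depth in either group. Of 9 tested genes for partners of prominin-1 and membrane protrusions, 5 fell and 1 rose, beside 33.6% and 33.8% of all genes tested, with a median of -0.13. With the GC and length offset 2 were lower and 3 higher, beside 26.0% and 37.5%, with a median of 0.06. The cilium gene Arl13b fell by 1.29 (-0.84 with the offset). Cav2 and Actr2 fell by 0.65 and 0.44, but stood at 0.52 and 0.38 with the GC and length offset.

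In FPKM the order of the 8 genes in shCtrl was Cd44, Ly6c1, Ly6e, Ly6a, Cd24a, Kit, Epcam and Prom1, with Cd24a and Kit overlapping. The order was the same in shUSP9X, where no neighbours overlapped, and Ly6a at 20.1 ± 1.70 FPKM (SD, n = 2) came near Ly6e at 23.4 ± 1.35 FPKM.

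Other markers of stem cells moved in both directions. Of 28 tested, 16 fell and 9 rose, beside 33.6% lower and 33.8% higher among all genes tested, with a median log2 fold change of -0.12. The adhesion protein Mcam fell by 1.93, the complement regulator Cd55 by 1.59 (-0.89 with the GC and length offset), the filament Nes by 0.73 and the Wnt co-receptor Lgr5 by 0.71. Procr, the protein C receptor, rose by 1.29 (384 and 376 counts against 1142 and 920), Myc by 0.97 and Lgr6 by 1.09. Lin28a had 3 and 3 counts against 14 and 21, and passed the filter only through shUSP9X. DESeq2 did not call Lgr6 (adjusted p = 0.119) or Lin28a (0.0508). Without 1 library the log2 fold change of Lgr6 ranged from 0.62 to 1.47. With the GC and length offset the counts of this list were 9 lower and 14 higher, beside 26.0% and 37.5% of all genes tested, with a median of 0.17.

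**Figure D4:**
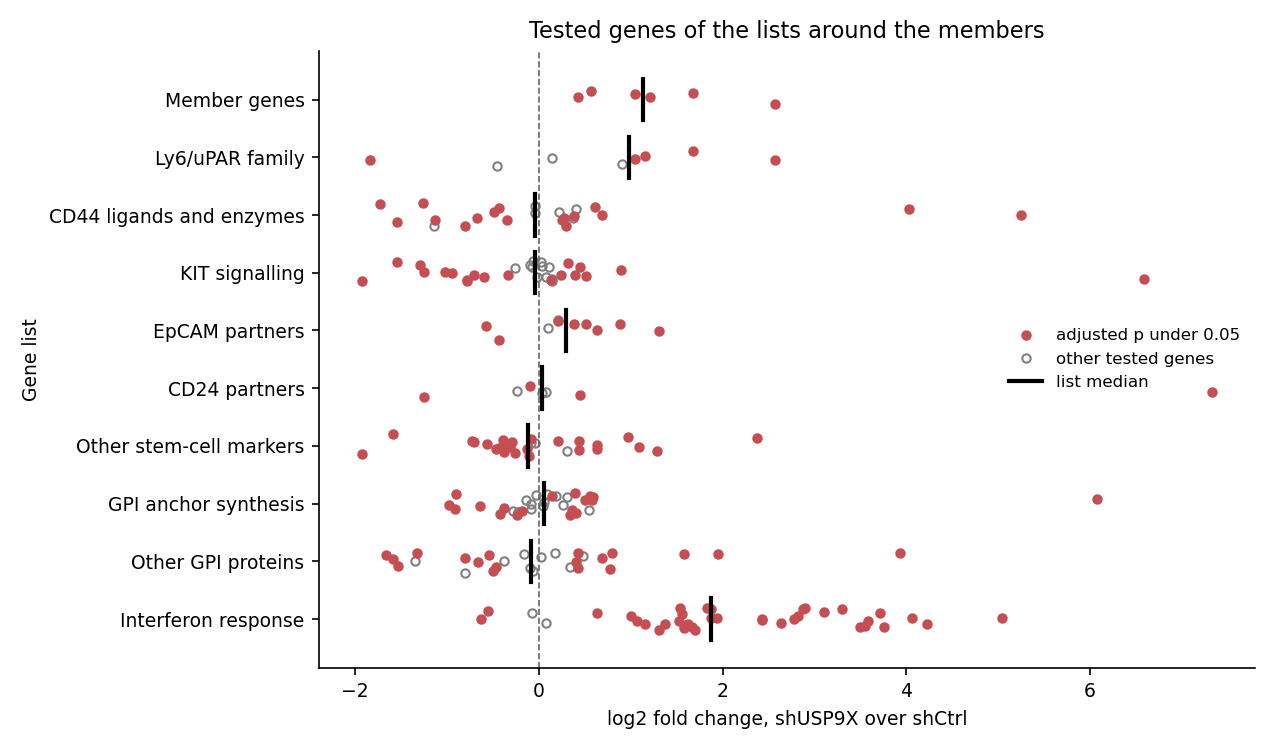
Log2 fold change, shUSP9X over shCtrl, of the tested genes of 10 lists. Filled points have an adjusted p under 0.05, open points do not, and black bars are list medians, which lie near 0 for most lists, at 1.13 for the member genes and at 1.87 for interferon response genes; the points beyond 6 include Plcg2 and Siglecf, which were at 0 in shCtrl, so their fitted values depend on the prior count.

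Since the Ly6 proteins and CD24 need a GPI anchor, its genes were counted. Of 31 tested for synthesis of the anchor, 10 rose and 8 fell, with a median of 0.06, near the 33.8% higher and 33.6% lower of all genes tested. Pigz, a mannosyltransferase, had 0 and 1 counts against 49 and 43, and the abundant transamidase subunit Pigt rose by 0.59. Pigz passed the filter only through shUSP9X, so its direction was fixed beforehand. Pgap1 and Pign fell by 0.91 and 0.64, but stood at 0.80 and 0.48 with the GC and length offset. Of 28 other GPI-anchored proteins tested, 9 rose and 9 fell, also near these shares, with a median of -0.08. The pantetheinase Vnn1 rose by 1.95 and Bst2 (tetherin) by 1.58, while Ncam1 fell by 1.67, Ulbp1 by 1.53 (-0.56 with the offset) and Gas1 by 1.33.

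Leukocytes also carry CD44, KIT, CD24 and the Ly6 proteins, and leukocyte markers moved with the groups. Of 14 such markers, 4 were tested, and all 4 of these rose. Each was at 0 in both shCtrl libraries and passed the filter only through shUSP9X, so its direction was fixed beforehand. The share of all genes tested that rose, 33.8%, is therefore no comparison for this count. Itgam, the most abundant, was at 0 in both control libraries and at 72 and 75 after knockdown, at least 22.3-fold higher. Adgre1 was at 58 and 59, Ptprc at 29 and 18 and Csf1r at 17 and 13 in shUSP9X, each at 0 in both shCtrl libraries. The markers summed to 0.0577 and 0.0632 CPM in shCtrl and 9.11 and 10.3 CPM in shUSP9X. Cd3e, Ms4a1, Nkg7, Cpa3 and C1qa were at 0 in every library, and Lyz2 had 2 counts in 1 library. Their part in the rise of the 6 genes was not tested.

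Markers of other cell types were counted too, beside 33.6% of all genes tested that fell. Of 9 endothelial markers 2 were tested and 1, Tek, fell by 0.80, while Cdh5, Kdr, Cldn5 and Emcn were at 0. The endothelial markers summed to 11.0 and 11.8 CPM in shCtrl and 7.13 and 7.54 CPM in shUSP9X. Of 8 fibroblast markers 4 were tested and 3 fell, namely Pdgfra by 2.87, Col1a1 by 1.72 and Dcn by 0.46 (-0.15 with the offset). They summed to 254 and 261 CPM in shCtrl and 149 and 147 CPM in shUSP9X, with Dcn the most abundant, and Pdgfrb, Dpt and Lum were at 0. None of 3 erythroid markers was tested, and the most abundant, Hba-a1, had 6.45 estimated counts in 1 shUSP9X library.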

How the data were processed

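Poly(A)-selected RNA was sequenced from 4 ID8 libraries, grouped by the condition in their labels. The submitters' processing notes name fastp 0.18.0, Bowtie2 2.2.8, HISAT2, StringTie 1.3.1 and RSEM with no roles, the study's methods name GRCm38 and DESeq2, and the annotation release and strand setting are not given in the sources used here. The authors deposited 1 table whose estimated counts are not normalized, and between 6.4% and 6.69% of these values were not whole. The authors also deposited FPKM values, scaled for transcript length and library size.

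Counts were rounded, filtered with filterByExpr, scaled by TMM and tested over 11448 genes with edgeR 4.0.16 (R 4.3.3), using the quasi-likelihood test, Benjamini-Hochberg adjustment and a threshold of 0.05, with no replicate block. The SE was the log2 fold change divided by the root of its F statistic. Scaled CPM values used the same factors. The test was tested on simulated data. Alternatives were DESeq2 1.42.0, other scalings and filters, limma 3.58.1 on log2(FPKM + 1) and log2(FPKM + 0.1), a replicate block, a loess offset (span 0.3) for GC content and transcript length, and leaving out each library. A count of 3 was the floor, and floors cover counting error only, since no molecular identifiers are described.

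Coordinates, exons, GC content and length came from GENCODE M21, which holds 21973 of the 22063 identifiers. The 8 genes and all lists were chosen with earlier results of these data known. Genes were named by a rule: the 8 genes and Usp9x, every Ly6/uPAR gene above 3 counts, in other lists up to 4 genes per direction with the largest change among those past the threshold without overlap, with the 2 most abundant, the genes of the Ly6 cluster, and the 3 nearest in pattern to Cd44, Ly6a and Ly6e. Marker genes at 0, Jrk, and the other markers named for their counts, fall outside it and were named after their values were seen. Some genes of the lists are not reported here by name.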

Additional observations from a re-analysis of the deposited data

How the results depend on the processing

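All 6 rises kept their direction under 15 alternatives, and the call was lost once, for Kit on log2(FPKM + 0.1) values (0.52, adjusted p = 0.051). Leaving out 1 library gave 0.42 to 0.44 for Cd44, 0.54 to 0.62 for Kit, 2.38 to 2.79 for Ly6a, 0.88 to 1.26 for Ly6e, 1.60 to 1.76 for Ly6c1 and 0.83 to 1.79 for Cd24a. Where that left 1 library in a group, it was assumed to vary like the other group. The replicate numbers only share a number: deviations of same-numbered libraries correlated at -0.0453. With the replicate block Cd44 was at 0.43, Cd24a at 1.23 and Ly6a at 2.57, 6 of the 8 genes were still higher, and the block ended no call among the results above other than that of Has3 (-1.24, adjusted p = 0.0519). It moved the whole-table counts from 3864 to 3855 higher and from 3843 to 3810 lower.

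Counts of the lists moved as follows. Ly6/uPAR genes lower numbered 1, against 2 with no filter beyond 1 count in some library, 0 with at least 10 counts in every library, 0 with DESeq2 and 0 on either FPKM scale, and 0 to 2 without 1 library. With the GC content and length offset, with or without the replicate block, CD44-related genes lower went from 9 to 5, KIT signalling genes higher from 8 to 13, EpCAM partners lower from 2 to 1, other stem-cell markers from 16 to 9 lower and from 9 to 14 higher, interferon genes lower from 2 to 1, prominin-1 partners from 5 to 2 lower and from 1 to 3 higher, and CD24 partners from 2 to 1 lower and from 2 to 4 higher. KIT signalling genes higher numbered 5 on either FPKM scale and 5 to 8 without 1 library. GPI anchor genes lower numbered 5 with DESeq2 and 5 to 8 without 1 library. With upper-quartile scaling 2 prominin-1 partners were higher and 1 CD24 partner was lower, and without 1 library these counts were 1 to 2 and 1 to 2. DESeq2 called 1 CD24 partner lower. CD24 partners higher numbered 4 with no filter beyond 1 count in some library, 1 with at least 10 counts in every library and 1 on either FPKM scale. Of the leukocyte markers 0 were called higher with at least 10 counts in every library or on either FPKM scale, since these filters leave out genes at or near 0.

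Among 95 other genes picked by the naming rule, 29 of 1369 values changed sign, 72 lost their call and 5 gained one. Not all of these genes are reported above. With the GC content and length offset the log2 fold changes were 0.38 for Actr2, 0.29 for Cav1, 0.52 for Cav2, -0.03 for Ctnnb1, 0.66 for Hmgb1, 0.02 for Itgb1, -0.17 for Krt19, -0.04 for Pecam1, 0.80 for Pgap1, 0.48 for Pign, -0.09 for Pigs, -0.06 for Slurp1 and 0.21 for Vcan. With the replicate block added, Pecam1 was -0.01, Slurp1 -0.05 and Vcan 0.22, and the others were equal to 2 decimals. Lypd1 ranged from -1.18 to 0.58 and Pecam1 from -0.45 to 0.74 without 1 library. The cause was not tested. Prom1, Epcam and most genes of the Ly6/uPAR list lay at or near the floor of 3 counts, where a change could not be measured.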
